A study of Mus musculus with 2 samples.

Results

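Neutrophil-like cells made up 93 of the 12573 tumour barcodes that passed the filters on cells, which was 0.740% (0.597 to 0.905, exact Clopper-Pearson 95% interval). Both libraries together held 21738 such barcodes. A barcode was a member when it had at least 200 genes, at least 500 unique molecular identifiers (UMIs, tags that count single transcript molecules) and at most 10% mitochondrial UMIs. It also needed S100a8 and S100a9 to give at least 0.5% of its UMIs together, and at least 1 UMI of Csf3r, Cxcr2 or Retnlg. The members were thus chosen by their counts of these 5 genes, whose levels below are descriptions.

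Neutrophils are short-lived phagocytes that arise in the bone marrow and enter tissue from blood. They carry ready-made granules of antimicrobial proteins and proteases, laid down in sequence while the cells mature, and they answer chemokines through CXCR2 and the growth factor G-CSF through the receptor encoded by Csf3r. In tumours and inflamed colon they can release chemokines and interleukin-1, and interleukin-17 of γδ T cells is a known upstream signal for their recruitment.

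The study profiled 2 droplet libraries (10x Genomics 3′ version 3) from C57BL/6J mice aged 18 to 20 weeks. One was from normal colon (labelled IEL) and one from colon tumor (labelled TIL), and the labels call the cells of both gamma-delta T lymphocytes. Cells came from the 40%/70% interface of a Percoll density gradient, and the labels name no sort, no tumour model and no number of animals. The protocol text speaks of tumour tissue for both samples. With 1 library per tissue there was no replicate check, so no p-value is given. Ratios carry exact 95% intervals conditional on the UMIs counted, and all intervals cover counting error only.

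The normal colon library held 0 of 9165 filtered barcodes that met the same rule, which allows a share of up to 0.0327% by 3 counts of the total and 0.0402% by the exact Clopper-Pearson upper limit. It had 0 UMIs of S100a8, S100a9, Csf3r, Retnlg and Il1b, 3 UMIs of Cxcr2, and 229 UMIs of the chemokine gene Cxcl2 in 37 cells. Tissue and library cannot be told apart, so these counts describe 2 libraries. The libraries held 9398 and 13245 barcodes with 69414155 and 94953893 UMIs (normal colon and tumour), and medians of 6850 and 6436 UMIs per filtered barcode. They shared 33 barcode sequences, of which 1 belonged to a member. In the tumour library 12181 barcodes were γδ T-like (UMIs of a CD3 chain and of a γ or δ receptor constant segment) and 108 were macrophage- or monocyte-like (complement C1q, Apoe, Lyz2 or Csf1r UMIs).

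The members had between 571 and 33808 UMIs each, with a median of 4690, and between 217 and 5197 genes, with a median of 1074. The γδ T-like cells had a median of 6467 UMIs and 2222 genes. A group of 23 members had fewer than 2000 UMIs, and the other 70 had at least 2226. S100a8 and S100a9 together took 0.520% to 43.2% of a member's UMIs, with a median of 17.3%. Members under 2000 UMIs had a median of 31.7% and the deeper ones 13.6%. The plot of depth against this share shows the shallow cells at its upper left.

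**Figure D1:**
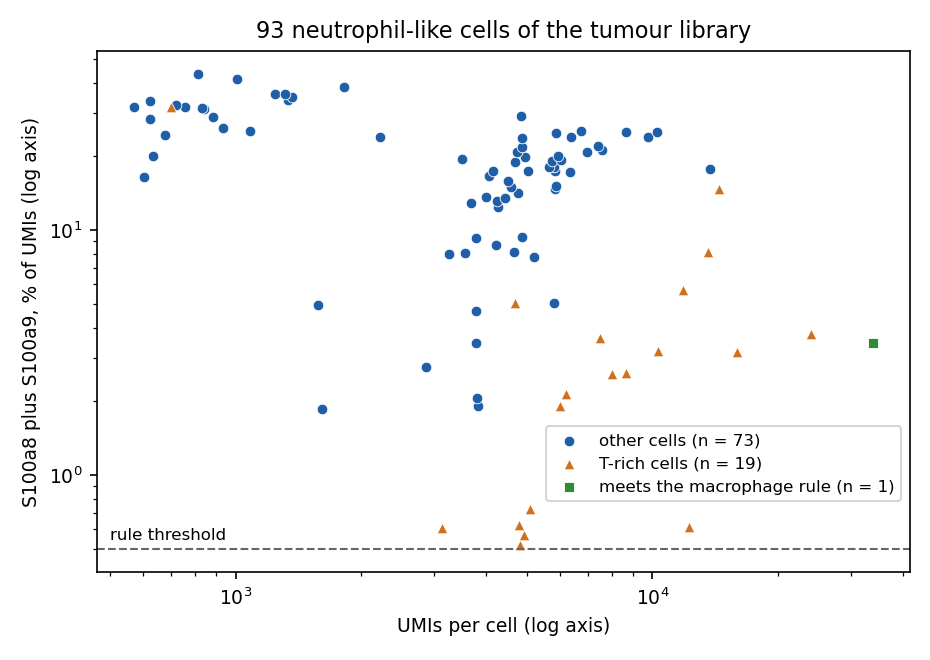
Each of the 93 neutrophil-like cells is placed by its UMIs (horizontal log axis) and by the percentage of its UMIs from S100a8 and S100a9 (vertical log axis). The T-rich cells, drawn as triangles, lie lower on the vertical axis, with a median share of 2.61% against 19.4% in the 73 circles.

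The label was set beside markers that the rule did not use. Their list was chosen with earlier results of these data known, so this describes the class and is no independent check. All 14 neutrophil markers outside the rule were detected, with a summed level of 28710 CPM (UMIs of a gene per 1000000 UMIs of all cells of the class), against 5128 CPM in macrophage- or monocyte-like and 179.2 CPM in γδ T-like cells. Per cell the sum ran from 392.1 through a median of 33888 to 111411 UMIs per 1000000, and it was 41028 CPM in the 73 members without T-rich and macrophage-rule cells, both described next. Il1b alone gave 9385 CPM of the members' sum and 3686 CPM of that in macrophage- or monocyte-like cells. Markers of eosinophils (7 of 9 at 0 UMIs, Siglecf among those detected), B and plasma cells (6 of 7 at 0) and dendritic cells (8 of 9 at 0) summed to 14.2, 10.1 and 22.2 CPM. Of 10 mast cell and basophil markers, 9 were at 0 and the exception was Hdc, the enzyme that makes histamine, which is also on the neutrophil list.

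Of the 3 genes of which the rule asked for 1, Retnlg had a UMI in 89 members, Csf3r in 68 and Cxcr2 in 46. All 3 were found in 40 members, a pair of them in 30 and only 1 of them in 23, among which Retnlg stood alone in 22.

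T cell transcripts were part of the members' counts. All 14 T cell markers were detected, summing to 4230 CPM against 15633 CPM in γδ T-like cells. They lay mostly in 19 members (20.4%, 12.8 to 30.1) whose share of T cell marker UMIs was at least 0.320%, which is 0.25 of the γδ T-like median. These 19 are called T-rich. Their median was 7495 UMIs and 2327 genes, above the 4223 UMIs and 970 genes of the 73 members discussed next. In 1 further member, the one with 33808 UMIs, the macrophage rule was also met, and it held 94.0% of the members' Apoe UMIs. The remaining 73 members are given beside the whole class as the cleaner set. Their 14 T cell markers summed to 550.9 CPM, with 1 marker at 0. No doublet caller was run, and whether a T-rich droplet held 1 cell or more was not tested.

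The 6 members nearest the S100a8 and S100a9 threshold had shares between 0.520% and 0.725%, and the 6 barcodes with the highest shares below it that had a UMI of Csf3r, Cxcr2 or Retnlg lay between 0.240% and 0.486%. All 12 were T-rich. Inside the threshold, 3 of the 6 had 0 Il1b UMIs. A separate set of 9 barcodes passed the S100a8 and S100a9 threshold and had no UMI of the other 3 rule genes; their median was 1287 UMIs.

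S100a8 and S100a9 encode the 2 chains of calprotectin, a calcium- and zinc-binding protein of the neutrophil cytosol. The members had 52860 CPM of S100a8 and 70588 CPM of S100a9, and they held 91.5% and 91.2% of the tumour library's UMIs of these genes. Per cell, S100a9 had a median of 93917 and a highest value of 244384 UMIs per 1000000. The secreted products were led by Cxcl2, a chemokine that binds CXCR2, and Il1b, the precursor of interleukin-1β. The 250 bases before the start of these 4 genes are shown because their transcripts mark the class and its secreted signals. They are from RefSeq (GRCm38.p6; 4 of 4 symbols were found) and are read 5′ to 3′ on the gene's strand: S100a8 at chr3:90668821-90669070 (+), S100a9 at chr3:90695722-90695971 (-), Cxcl2 at chr5:90903649-90903898 (+) and Il1b at chr2:129371140-129371389 (-). Capitals mark matches to TATAAA on the gene's strand and, on both strands, to the C/EBP-type motif TTNNGNAA and the NF-κB-type motif (GGG, then any 2 bases, then TTTCC).
S100a8: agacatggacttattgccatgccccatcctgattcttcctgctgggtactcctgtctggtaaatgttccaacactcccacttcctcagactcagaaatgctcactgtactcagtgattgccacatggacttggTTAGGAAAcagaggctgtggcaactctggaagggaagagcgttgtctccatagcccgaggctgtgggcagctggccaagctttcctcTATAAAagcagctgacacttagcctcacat
S100a9: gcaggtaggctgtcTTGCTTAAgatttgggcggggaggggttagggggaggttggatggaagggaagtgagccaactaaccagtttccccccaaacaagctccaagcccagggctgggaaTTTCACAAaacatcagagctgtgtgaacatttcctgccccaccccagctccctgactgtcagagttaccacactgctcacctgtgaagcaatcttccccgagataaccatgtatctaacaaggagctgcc
Cxcl2: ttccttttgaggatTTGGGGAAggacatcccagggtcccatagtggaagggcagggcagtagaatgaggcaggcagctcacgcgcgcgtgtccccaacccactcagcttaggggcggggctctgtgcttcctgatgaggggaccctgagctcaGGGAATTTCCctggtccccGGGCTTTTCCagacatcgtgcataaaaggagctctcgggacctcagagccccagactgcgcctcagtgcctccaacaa
Il1b: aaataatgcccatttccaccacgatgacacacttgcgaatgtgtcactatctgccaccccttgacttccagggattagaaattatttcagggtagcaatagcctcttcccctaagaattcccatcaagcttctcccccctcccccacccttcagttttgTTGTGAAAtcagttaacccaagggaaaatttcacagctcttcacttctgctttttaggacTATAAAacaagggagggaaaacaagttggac
S100a8 and Il1b each have TATAAA, its first base 30 and 31 bases before the start, and 1 C/EBP-type match. S100a9 has 2 C/EBP-type matches on the opposite strand. Cxcl2 has 1 C/EBP-type match and 2 NF-κB-type matches, which begin 97 and 78 bases before the start. Of 32536 distinct windows of this length in the table, 7.55% hold the first motif, 36.8% the second and 1.40% the third. A match describes letters only, and the data here do not measure binding.

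Against the macrophage- or monocyte-like cells, a gene was measured from 50 CPM in either of the classes, and it was called higher or lower when the ratio was at least 2-fold with an interval excluding 1. Of 3080 genes outside the rules that chose the classes, 365 were higher in the neutrophil-like cells (11.9%) and 1025 were lower (33.3%). The median log2 ratio over all measured genes was -0.60, and with this median set to 0 the split was 674 higher and 455 lower. Without T-rich cells in either class and without the macrophage-rule cell, 477 of 2925 genes were higher (16.3%) and 1541 were lower (52.7%), with a median of -1.15. Both classes were cut from these counts, so the ratios describe the classes. T-rich cells made up 32.4% of the macrophage- or monocyte-like cells.

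Cxcl2 had 17032 UMIs in 84 of the 93 cells. Per cell it ran from 0 through a median of 28753 to 125495 UMIs per 1000000. Summed, it stood at 34421 CPM against 10471 CPM in the macrophage- or monocyte-like and 259.6 CPM in the γδ T-like cells (log2 ratio to the former 1.72, 1.68 to 1.75). The class held 30.1% of the Cxcl2 UMIs of all the library's barcodes, although it was 0.740% of the filtered ones. The 19 T-rich members had 12476 CPM and the 73 others 47344 CPM.

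Il1b also had UMIs in 84 members, 4644 in all, with a per-cell median of 8397 and a highest value of 75921 UMIs per 1000000. Its level was 9385 CPM against 3686 CPM (log2 ratio 1.35, 1.29 to 1.41), and 31.3 CPM in γδ T-like cells. When each cell was thinned to 1000 UMIs, which left out 14 members, 21 macrophage- or monocyte-like and 41 γδ T-like cells, 89.9% of members (81.0 to 95.5) had an Il1b UMI. The shares were 59.8% of macrophage- or monocyte-like and 0.758% of γδ T-like cells, and unthinned they were 90.3% of members and 3.29% of γδ T-like cells. For Cxcl2 the thinned shares were 88.6%, 66.7% and 6.85%, and unthinned they were 90.3% of members and 20.8% of γδ T-like cells. At matched depth both genes were thus detected in most cells of both myeloid classes and in a smaller share of γδ T-like cells.

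Of 12 measured chemokines, 4 were higher, 6 lower and 2 neither, with a median log2 ratio of -0.80. The 4 higher ones were Cxcl2, Cxcl3, Ccl3 and Ccl6. Cxcl3, another CXCR2 ligand, was at 5075 CPM against 476.2 (log2 ratio 3.41, 3.28 to 3.55), from 57 cells. Ccl3, a ligand of CCR1, was at 3533 CPM against 1444 (1.29, 1.19 to 1.39), and Ccl4 was at 2555 CPM against 2735, from 37 cells. Among the lower ones, Cxcl16 was at 46.5 CPM against 478.1, and 91.3% of its UMIs came from 1 cell. Ccl2, which attracts monocytes, was at 30.3 CPM against 221.7. Cxcl1 lay at 375.9 CPM against 856.0, from only 7 members. Called chemokines thus lay in both directions, beside 11.9% higher and 33.3% lower over all measured genes.

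Of 15 measured cytokine and growth factor genes, 2 were higher and 5 lower, with a median of -0.39 that became 0.20 when the median of all genes was set to 0. These counts lay near the shares over all measured genes, 11.9% higher and 33.3% lower. Il1b and Tnfsf14, which encodes the cytokine LIGHT, were the higher ones on the list. Tnfsf14 was at 50.5 CPM against 0.936, from 25 UMIs in 13 cells. Tnf was at 169.8 CPM against 506.1 (log2 ratio -1.58), found in 23 cells, but with every cell weighted equally the log2 ratio was -0.33, which ends the call. Il10, which restrains inflammation, was at 44.5 CPM against 280.7, with 54.5% of its UMIs from 1 cell. Vegfa, the vascular growth factor, was at 34.4 CPM against 154.4, and Il12b had 0 UMIs against 79.5 CPM, which is at least 13.1-fold lower. Il1rn, the interleukin-1 receptor antagonist, was at 1071 CPM against 555.7, under the 2-fold limit, and above it with every cell weighted equally (log2 ratio 1.75). Il1f9, named by rank and not on the list, which encodes interleukin-36γ, was at 642.7 CPM against 4.68 (log2 ratio 7.10, 5.86 to 8.73).

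**Figure D2:**
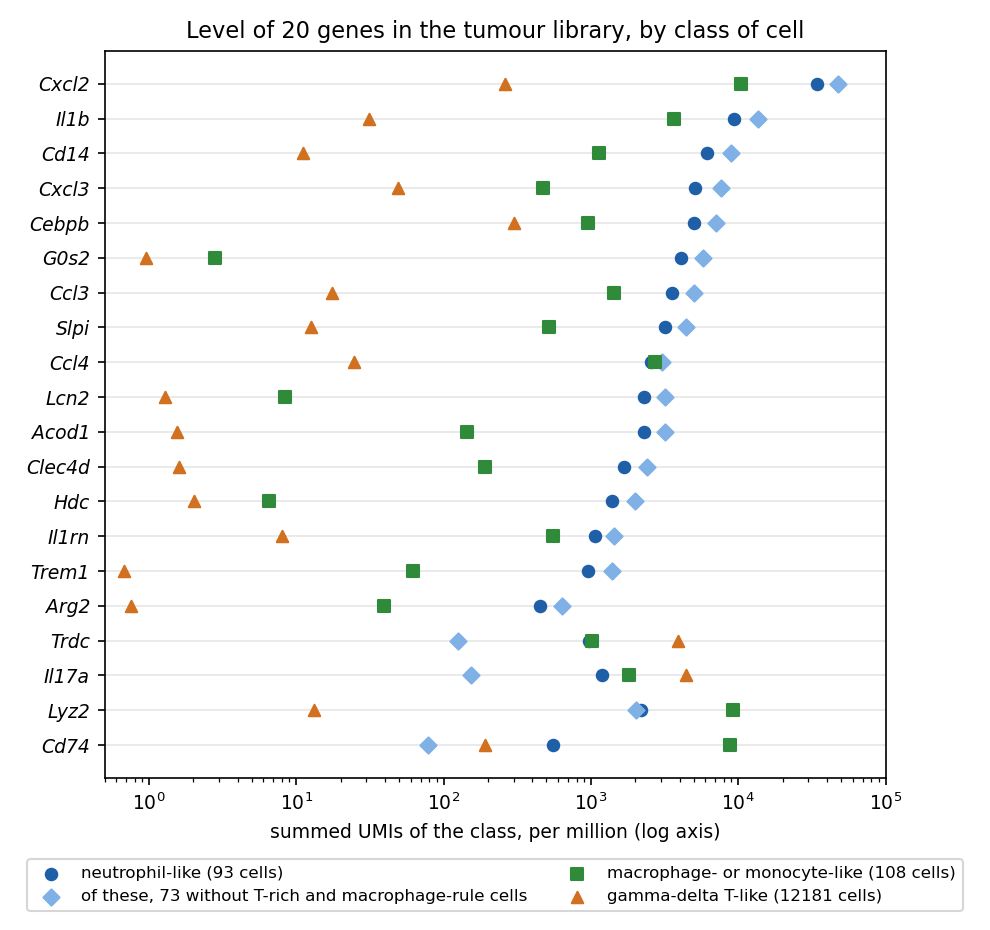
Summed level of 20 genes (horizontal log axis, UMIs per 1000000) in the neutrophil-like cells, in 73 of them without T-rich and macrophage-rule cells, in macrophage- or monocyte-like and in γδ T-like cells. Cxcl2 stands at 34421 in the neutrophil-like class against 10471 and 259.6, while Trdc and Il17a are lower in the 73 cells than in the whole class.

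Neutrophil granules are filled in stages as the cells mature. None of the 7 primary granule genes, made at the promyelocyte stage, reached the floor: Mpo and Elane had 0 UMIs. Of 11 measured secondary and tertiary granule genes, 9 were higher and 2 lower, with a median log2 ratio of 3.53. Lcn2, an iron-scavenging protein of secondary granules, was at 2288 CPM against 8.42 (8.09, 7.16 to 9.22), in 70 cells. Slpi, an inhibitor of neutrophil elastase, was at 3203 CPM against 518.3, in 79 cells. Mmp8 and Mmp9, collagen- and gelatin-degrading proteases, were at 264.7 CPM against 5.61 and 658.8 CPM against 57.1, and with every cell weighted equally the log2 ratio of Mmp9 was 2.01 in place of 3.53. Ngp and Camp, both typical of bone marrow precursors, rested on single cells: 71.1% of 370 Ngp UMIs and 77.1% of 35 Camp UMIs came from 1 cell. Ltf, the lactoferrin gene, had 7 UMIs in 4 cells. The lower pair was Chil3, a chitinase-like protein, and Cybb, given next.

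The NADPH oxidase makes superoxide in phagocytes from a membrane core and cytosolic subunits. Of its 6 measured genes, 3 were higher and 1 lower, with a median of 0.94. The cytosolic subunit Ncf1 and the GTPase gene Rac2 were among the higher ones, with log2 ratios of 1.31 and 1.55. Cybb, the catalytic membrane subunit, was at 56.6 CPM against 474.3 (log2 ratio -3.07, -3.67 to -2.52), and only 10 members had a UMI. Its partner Cyba was between, at -0.41. Subunits of 1 enzyme therefore differed in direction in these counts.

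Cytosolic calcium-binding and protease inhibitor genes outside the rule were higher in 5 of 8 measured cases and lower in 0, with a median of 2.60. The higher ones were S100a6 (7603 CPM against 1041), S100a11 (4945 against 672), Anxa1 and the stefins Stfa1 and Stfa2l1. Stfa2l1 and Cstdc4, a cystatin gene named by rank and not on the list, had 0 UMIs in the macrophage- or monocyte-like class, so their ratios are bounds: 1295 CPM, at least 461.6-fold higher, and 1999 CPM, at least 712.1-fold higher. Both belong to families of near-identical copies, whose reads the counting may not tell apart.

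Of 12 measured chemoattractant and growth factor receptors outside the rule, 9 were higher and 0 lower, with a median of 1.69. Fpr1, which senses bacterial formyl peptides, was at 357.7 CPM against 0.936 (log2 ratio 8.58, 6.08 to 13.9), in 50 cells. Hcar2, a receptor for butyrate and ketone bodies, was at 919.5 CPM against 33.7 (4.77, 4.28 to 5.30), in 58 cells. The complement receptor C5ar1 and the chemokine receptor Ccr1 had log2 ratios of 1.41 and 1.81. Cxcr4, which holds neutrophils in the marrow, was at 220.3 CPM against 120.7, short of 2-fold, and at 238.1 CPM in the cleaner set.

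Among the rule's own receptors, Csf3r was at 432.5 CPM and Cxcr2 at 280.9 CPM, with 76.7% and 92.7% of the library's UMIs of each. After thinning, 40.5% of members had a Csf3r UMI against 0.00824% of γδ T-like cells, and unthinned the shares were 73.1% and 0.0821%. Receptors through which T cell cytokines act were measured for 11 genes: 0 were higher and 1, Csf2rb2, was lower, with a median of 0.14. Il17ra, the interleukin-17 receptor chain, was at 58.6 CPM against 53.3 in macrophage- or monocyte-like and 40.1 in γδ T-like cells. Il17ra was thus detected in all 3 classes.

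Of 15 measured pattern recognition receptors and adaptors, 8 were higher and 1 lower, with a median of 1.02. Cd14, the lipopolysaccharide co-receptor, was at 6150 CPM against 1141 (log2 ratio 2.43, 2.33 to 2.53), in 74 cells. Clec4d and Clec4e, lectins that bind mycobacterial glycolipids, had ratios of 3.13 and 2.73. Trem1, which amplifies inflammatory signalling, was at 964.0 CPM against 61.8 (3.96, 3.59 to 4.36). Fcgr2b, the inhibitory antibody receptor, was the lower one, at -3.93. Of 4 measured inflammasome genes 3 were higher, Nlrp3 (1.35) and Casp4 (1.64) among them, and the adaptor Pycard was lower, at -1.98.

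Of 19 measured immune regulatory genes, 8 were higher and 4 lower, with a median of 0.63. Acod1, which makes itaconate, was at 2308 CPM against 145.0 (log2 ratio 3.99, 3.75 to 4.24), in 73 cells. Arg2, the mitochondrial arginase, was at 454.7 CPM against 39.3 (3.53, 3.05 to 4.04), in 69 cells. Arg1, the cytosolic arginase typical of some tumour macrophages, had 0 UMIs against 138.5 CPM, at least 22.8-fold lower. Nos2 had 3 UMIs in 2 cells. Arginase transcripts in the members were thus those of Arg2.

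Cd274 and Ptgs2 did not reach 2-fold. Cd274, which encodes PD-L1, was at 123.3 CPM against 110.4 (log2 ratio 0.16, -0.31 to 0.62), in 29 cells. Ptgs2, the inducible cyclooxygenase, was at 384.0 CPM against 339.6 (0.18, -0.08 to 0.43). Of 18 measured genes on a list of reported tumour neutrophil genes, 5 were higher and 5 lower. The list median was 0.17, and -0.03 in the cleaner set, beside -0.60 and -1.15 over all measured genes. The higher ones on the list were Hcar2, Clec5a, Tnfrsf23, Arg2 and Gpr84, and the lower ones Arg1, Plau, Lgals3, Ctsb and Vegfa. Tnfrsf23, a decoy receptor for the death ligand TRAIL, was at 70.7 CPM against 7.49, in 20 cells, and Ctsb, a lysosomal protease, at 323.4 against 2376. Siglecf, used elsewhere to mark a tumour neutrophil state, had 6 UMIs in 5 cells.

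Of 11 measured adhesion and migration genes, 6 were higher and 1 lower, with a median of 1.20. Selplg, the P-selectin ligand gene, and Cd44, a receptor for hyaluronan, were among the higher ones, with Cd44 at a log2 ratio of 1.20. Of 13 measured interferon-response genes, 7 were higher and 1 lower, with a median of 1.501. Ifitm1, an antiviral membrane protein, was at 3985 CPM against 405.1, in 80 cells, and Slfn4 was at 487.1 CPM against 1.87. Cxcl10, a classic interferon-induced chemokine, went the other way, at 76.8 CPM against 230.1.

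Metabolic genes differed by pathway. Of 21 measured oxidative phosphorylation genes, 0 were higher and 12 lower, with a median of -1.03, and 19 of 21 were lower in the cleaner set, with a median of -2.05. Cox5a, a subunit of complex IV, was at 192.0 CPM against 535.1, and Atp5a1, of the ATP synthase, at 125.3 against 308.7. Of 22 measured glycolysis and hypoxia genes, 5 were higher and 1, the hexokinase gene Hk2, was lower, with a median of 0.02 that lay on either side of 0 across the settings tried. Slc2a3, a glucose transporter, was at 145.5 CPM against 10.3, in 36 cells. Of 8 measured lipid handling genes, 2 were higher and 5 lower, with a median of -1.62. G0s2 and Alox5ap, which supports leukotriene synthesis, were the higher ones, and Trem2, a lipid receptor of macrophages, was at 4.04 CPM against 276.9, with both of its UMIs in 1 cell. The oxidative list thus lay below the median of all measured genes and the glycolytic list above it.

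In the antigen presentation list, 1 of 13 measured genes was higher and 7 lower, with a median of -2.02. The higher one was the co-stimulatory ligand gene Cd80. Without T-rich cells in either class and without the macrophage-rule cell, 0 of 12 were higher and 9 lower, with a median of -3.86. Cd74, the class II invariant chain, was at 551.7 CPM against 8857 (log2 ratio -4.00, -4.18 to -3.83), but 86.1% of its UMIs came from the macrophage-rule cell. In the 73 other cells it was at 78.2 CPM, a log2 ratio of -7.30. H2-Ab1, a class II chain, had 96.5% of its UMIs in that cell. Among transcription factors, 4 of 18 were higher and 2 lower, with a median of 0.37. Cebpb, which drives emergency neutrophil production, was at 4988 CPM against 963.6 (2.37, 2.27 to 2.48), in 91 cells, and Mxd1 was at 1231 CPM against 158.1.

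Survival genes gave 6 of 17 higher and 3 lower. Their median was 0.09, and -0.03 in the cleaner set, beside -0.60 and -1.15 over all measured genes. Mcl1, on which neutrophil survival depends, was at 2094 CPM against 714.8 (1.55, 1.41 to 1.69), in 85 cells. Fas, a death receptor, was at 165.7 CPM against 16.8, and the death effector Bax was lower, with a log2 ratio of -1.22. G0s2, an inhibitor of triglyceride breakdown and the gene furthest above the macrophage- or monocyte-like class by the naming rule, was at 4066 CPM against 2.81 (log2 ratio 10.50, 8.95 to 12.78). It lies at chr1:193272161-193273217 on the reverse strand (mm10). A G0s2 UMI was found in 74.7% of members after thinning, against 0.107% of γδ T-like cells, and in 81.7% against 0.649% unthinned. Dissociation stress genes, which tissue digestion can induce, were higher in 3 and lower in 1 of 14 cases, with a median of -0.16. Without T-rich cells in either class and without the macrophage-rule cell, 3 of 16 were higher and 6 lower, with a median of -0.59. Over all measured genes of that comparison, 16.3% were higher and 52.7% lower, with a median of -1.15. The part of the dissociation stress genes in the other results was not tested.

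**Figure D3:**
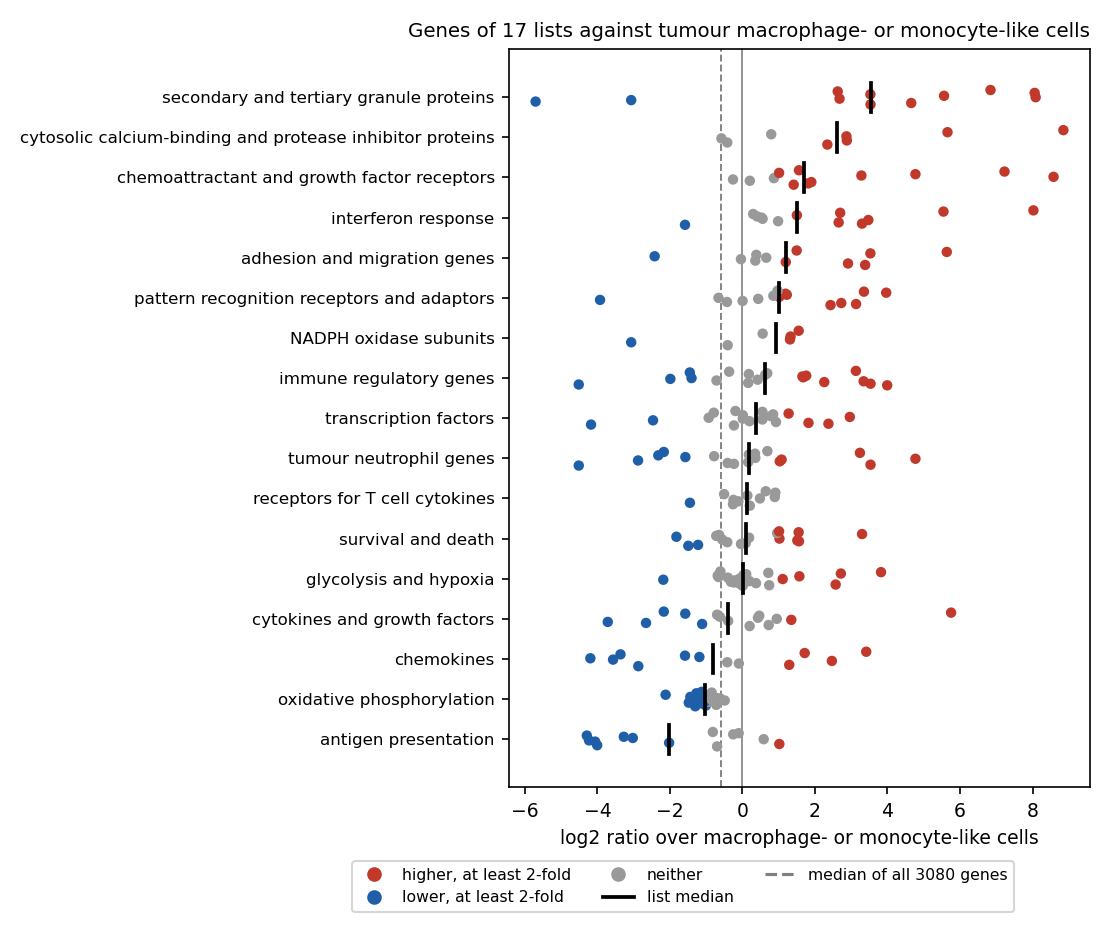
Each point is a measured gene of 1 of 17 lists, placed by its log2 ratio of neutrophil-like over macrophage- or monocyte-like cells (genes at 0 UMIs in a class at their bound); bars are list medians and the dashed line is the median of all 3080 genes, -0.60. Granule genes have the median furthest to the right, 3.53, and antigen presentation the one furthest to the left, -2.02.

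Against the γδ T-like cells, 497 of 3327 measured genes were higher (14.9%) and 1556 lower (46.8%), with a median log2 ratio of -0.93. With that median set to 0, the split was 812 higher and 231 lower. All 14 measured neutrophil list genes outside the rule were higher. Trdc, the δ chain constant segment, was at 978.1 CPM in the members against 3881 CPM in γδ T-like cells, and at 125.8 CPM in the cleaner set. Il17a was at 1198 CPM against 4396, and at 153.0 CPM in the cleaner set. Among T-rich members the 2 genes stood at 2581 and 3264 CPM. After thinning, 83.3% of T-rich and 13.3% of the cleaner members had a Trdc UMI, against 88.0% of γδ T-like cells.

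Another pair of T cell genes showed how far 1 cell or the T-rich members carry such sums. Gzma, a cytotoxic granule protease, was at 1780 CPM in the members, with 69.2% of its UMIs from 1 cell, and at 159.8 CPM in the cleaner set. Areg, an epidermal growth factor receptor ligand, was at 2395 CPM, at 6654 CPM in T-rich members and at 207.5 CPM in the cleaner set.

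The members also varied among themselves. The 51 cleaner members of at least 2000 UMIs were ordered by their S100a8 and S100a9 share and cut into terciles of 17 cells, with shares of 1.91% to 13.6%, 13.7% to 19.4% and 19.5% to 29.2%. Because the cut uses the measure that chose the cells, these are ranges and not cell types. Their median depths were 3822, 5659 and 5937 UMIs, which the results that follow share. Levels were taken per 1000000 UMIs other than those of S100a8 and S100a9. Of 712 genes with at least 200 per 1000000, 84 were higher in the upper than in the lower tercile (11.8%) and 97 were lower (13.6%), with a median log2 ratio of -0.02.

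Of 10 measured secondary and tertiary granule genes, 7 were higher in the upper tercile and 0 lower, with a median of 1.11. Among the 7 were Camp and Ngp, most of whose UMIs over the class came from 1 cell. Camp had 28 UMIs in 2 of 17 upper cells and Ngp 285 UMIs in 7 of 17, and both had 0 in the lower tercile. Slpi, at 4788 against 4576, Mmp9, at 1160 against 884.1, and Arg2 were neither. Of 14 neutrophil markers outside the rule 5 were higher and 0 lower, with a median of 0.23, and Hdc and Trem1 were among those that were neither. Wfdc21 was at 3171 against 682.5 per 1000000 (log2 ratio 2.22, 1.75 to 2.71). Per cell, its upper tercile ran from 726.1 through 2664 to 5397 and its lower from 0 through 466.5 to 3652, so the terciles overlapped. Mmp8 was at 839.1 against 31.0 (4.76, 2.85 to 7.83), with a UMI in 12 of 17 and 2 of 17 cells. Anxa1, a protein that limits neutrophil adhesion, was at 1604 against 170.6 (3.23, 2.35 to 4.27), and Ly6g, the standard surface marker of mouse neutrophils, at 592.3 against 93.1 (2.67, 1.44 to 4.19). S100a6 was at 15510 against 5879 and Retnlg, a rule gene, at 28256 against 3785. Camp and Ngp aside, cells with more calprotectin transcript thus also had more of the genes named as higher here.

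Other genes were on the lower side. Clec4n, a lectin that binds fungal mannan, was at 24.7 against 1132 per 1000000 (log2 ratio -5.52, -8.59 to -3.62). It had a UMI in 2 against 12 of 17 cells. Its per-cell medians were 0 and 313.1, with highest values of 252 and, in 1 lower-tercile cell, 7272. Il1rn was at 493.6 against 2575 (-2.38, -2.92 to -1.88); its per-cell medians were 503.9 and 2199, with highest values of 1064 and 6879. Tnf was at 98.7 against 729.0 (-2.88, -4.18 to -1.79), in 4 and 10 cells. Of 13 measured dissociation stress genes, 0 were higher in the upper tercile and 6 lower, with a median of -0.94, and their part was not tested. Over the 51 cells the Spearman correlation with the S100a8 and S100a9 share was 0.69 for Wfdc21, 0.56 for Mmp8, -0.59 for Il1rn and -0.61 for Clec4n. These are descriptions over cells of 1 library that also differ in depth.

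Cxcl2, Il1b and G0s2 did not reach 2-fold between the terciles. Cxcl2 was at 51120 against 73629 per 1000000 (log2 ratio -0.53, -0.59 to -0.47), Il1b at 16238 against 18970 (-0.22) and G0s2 at 8082 against 8159 (-0.01, -0.18 to 0.15). Cxcl2 and Il1b had UMIs in all 17 cells of both terciles. Of 6 measured chemokines, 2 (Ccl6 and Cxcl1) were higher in the upper tercile and 0 lower, with a median of -0.50. Ccl6 was at 1913 against 791.0. Cxcl1 was at 1542 against 62.0, but only 2 of 17 upper and 1 of 17 lower cells had a UMI. Its Spearman correlation with the S100a8 and S100a9 share over the 51 cells was 0.03. Of 8 measured cytokine and growth factor genes, 0 were higher and 4 (Il1a, Il1rn, Il23a and Tnf) lower, with a median of -0.94.

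**Figure D4:**
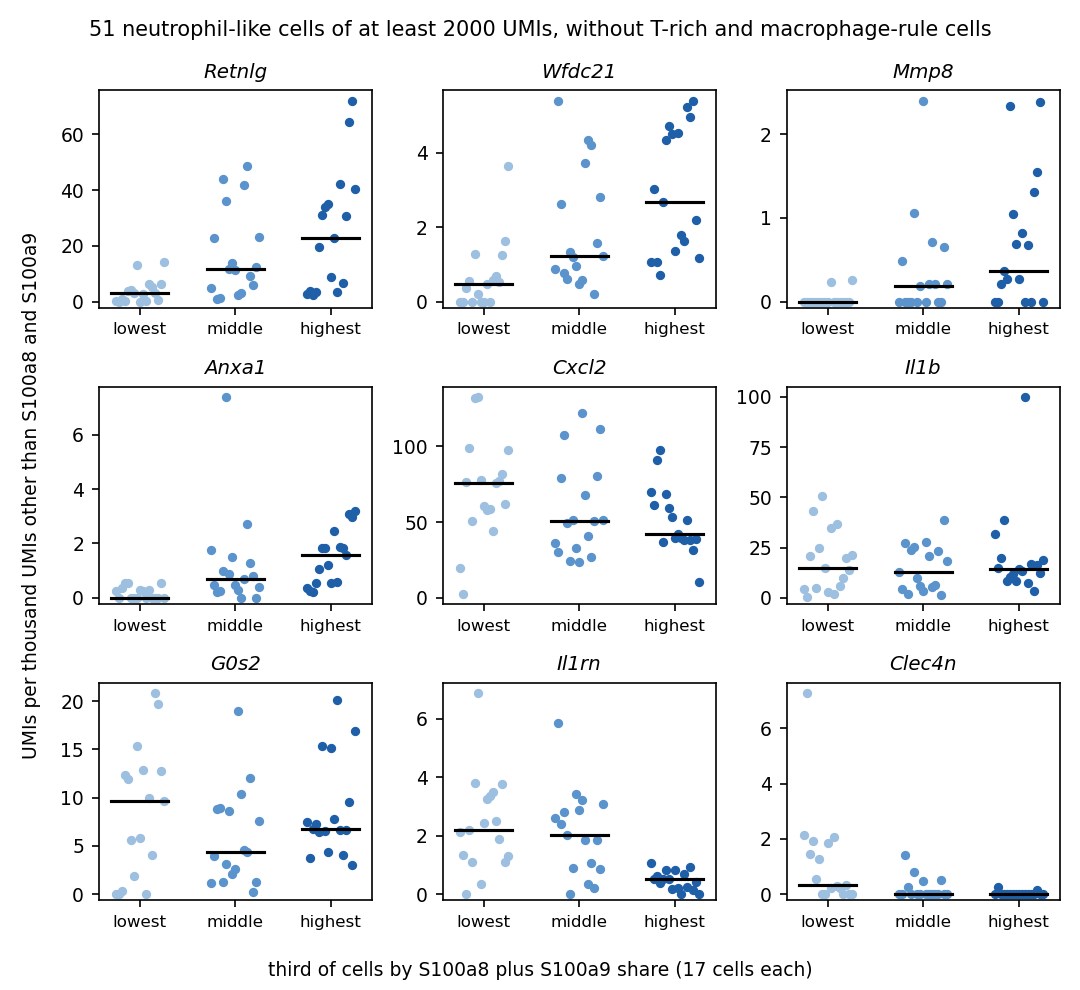
Per-cell levels of 9 genes (vertical axis, UMIs per 1000 UMIs other than S100a8 and S100a9) in 51 cells cut into terciles of 17 by their S100a8 and S100a9 share; bars are medians. Wfdc21, Mmp8, Anxa1 and Retnlg are higher in the upper tercile, Il1rn and Clec4n are lower, and Cxcl2, Il1b and G0s2 differ by less than 2-fold.

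Depth moved with the shares that chose the cells. The 22 cleaner members under 2000 UMIs had a median of 860.5 UMIs, a median calprotectin share of 31.6% and 0 UMIs of Cxcr2, against 120 Cxcr2 UMIs in the 51 deeper ones. S100a9 was at 162329 CPM in the shallow and 97458 CPM in the deep cells, Cxcl2 at 25065 and 49133 CPM, and Cxcl3 at 1967 and 8090 CPM. Il1b was close in both, at 14957 and 13631 CPM. The shallow cells summed to 21863 UMIs and the deep ones to 272179, and the Cxcr2 counts come from these unlike totals. The part of depth in these differences was not tested.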

How the data were processed

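Both libraries were deposited as raw counts of UMIs for each gene in each barcode, as the whole numbers and the file headers show, not normalized by the authors. Cell Ranger 6.1.1 and mm10 are listed in the submitters' processing notes; the method of cell calling is not given in the sources used here. Barcodes were filtered (at least 200 genes, 500 UMIs, at most 10% mitochondrial UMIs) and classed by fixed rules on counts. Counts were summed over each class and given as CPM; a class at 0 UMIs was set to a floor of 3. A gene was measured from 50 CPM and called from 2-fold with a 95% interval excluding 1. Thinning to 1000 UMIs used 1 seeded draw per cell. No doublet caller was run; T-rich cells (T cell marker share of at least 0.25 of the γδ T-like median) were set apart instead. Calling was tested on counts simulated for the summed classes without variation between cells, so that test covers counting error only. Members and the 34 gene lists were chosen with earlier results of these data known. Named genes were the 15 furthest in each direction against macrophage- or monocyte-like cells and the 10 furthest in each direction against γδ T-like cells, from 200 CPM in the higher class, the 5 highest members of each list by level, and a set that included the marker genes. The ranking left out rule genes, unnamed gene models, receptor segments and genes of ribosomes, mitochondria, haemoglobin, immunoglobulins and the sex chromosomes. Other genes named were chosen after their values were seen. Python 3.11.15, NumPy 2.4.6, SciPy 1.17.1, pandas 2.3.3 and Matplotlib 3.10.9 were used. Alternatives changed the filters on cells, the rule, the CPM floor, the scaling, the weighting of cells and the T-rich cells. Some results are not reported here.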

Additional observations from a re-analysis of the deposited data

How the results depend on the processing

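The number of neutrophil-like cells was 70 when 2 of the 3 receptor and Retnlg genes were required, 71 with at least 500 genes and 1000 UMIs, and 74 without T-rich cells. It was 73 without T-rich and macrophage-rule cells, an alternative chosen after seeing the data, and its range was 70 to 98. Against macrophage- or monocyte-like cells, the genes lower in the members numbered 1635 without T-rich members, 1541 without T-rich cells in both classes (chosen after seeing the data), 1895 with a floor of 20 CPM and 504 with a floor of 100 CPM. With the median ratio set to 1 they were 674 higher and 455 lower. Against γδ T-like cells, the lower genes numbered 2862 and 811 with those floors, and with the median ratio set to 1 the split was 812 higher and 231 lower. The floors change the number of genes tested; the cause of the other changes was not tested. Of the values recomputed for 30 named genes, 99 lay outside the counting interval of the main value and 291 within it. With every cell weighted equally, the log2 ratio of Tnf went from -1.58 to -0.33 and that of Mmp9 from 3.53 to 2.01. No called value among these 30 genes changed sign, and the other called genes were not followed gene by gene; the medians of the cytokine, T cell cytokine receptor, glycolysis, survival, tumour neutrophil and stress lists lay on both sides of 0. No paired analysis was possible because each group had 1 library. Depth limits genes of few UMIs: 1 UMI over the class was about 2 CPM.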
